A study of Petunia x hybrida with 22 samples.

Results

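In the corolla of Petunia x hybrida cultivar Mitchell, a garden petunia whose white flowers release scent at night, 269 genomic regions carried less H3K27ac, less H3K4me3 and less H3K36me3 at 7PM than at 7AM. They were chosen from the authors' deposited lists of changed intervals (islands). Islands of H3K27ac with fewer reads at 7PM after scaling each library to 1000000 reads (CPM) were merged across both replicates wherever they shared at least 1 bp, which gave 3698 regions with a falling island in each replicate. Of these, 294 also overlapped a falling H3K4me3 island and a falling H3K36me3 island in at least 1 replicate of each mark. The 25 regions whose H3K27ac was lower by 4-fold or more in both replicates were left out, which leaves 269. H3K9ac was not used in the choice and is described there as a separate readout.

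Chromatin immunoprecipitation followed by sequencing was done on corolla tissue fixed in 1% formaldehyde. All plants were of the same cultivar, under 14 h of light and 10 h of dark in a greenhouse. The light period ran from 6AM to 8PM, so that sampling at 7AM fell early in the light and sampling at 7PM late in it. There were 16 ChIP libraries, 2 biological replicates for each of 4 marks at each time, numbered 1 and 2 for H3K4me3, H3K9ac and H3K27ac and 1 and 3 for H3K36me3. The labels do not say whether replicates came from separate plants, so their spread may be partly technical. Whole corollas hold several cell types, and fewer marked cells cannot be told apart from less mark per cell. The 6 input samples were not used here.

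H3K4me3 is laid down around the start of transcribed genes, and H3K36me3 is placed along gene bodies by enzymes that travel with elongating RNA polymerase. H3K27ac and H3K9ac are added by acetyltransferases at active promoters and enhancers and can be removed quickly by deacetylases, whereas methyl marks on histones usually turn over more slowly. In plants, many genes with a daily rhythm carry rhythms of these marks. The sources used here give no gene at the scaffold positions below, so regions are named by scaffold and position alone.

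The acetylation libraries were the shallower ones, with 6721831 to 14140437 reads for H3K27ac and 11507185 to 15757663 for H3K9ac. The methylation libraries held 26643442 to 43918569 reads (H3K36me3) and 27700344 to 51116862 (H3K4me3). Every island in the authors' deposited tables had changed by at least 2.00-fold with a false discovery rate of at most 0.0097. A region without an island of a mark may therefore have changed by less, and its level was not analysed here. The H3K9ac replicates stood apart in their lists. Replicate 1 had 21714 falling and 5699 rising islands (79.2% falling), and replicate 2 had 5331 falling and 6415 rising (45.4%).

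The 269 regions lay on 192 scaffolds and together covered 1177 kb. One region each was found on 144 scaffolds, and at most 4 on any one. Their length ran from 200 to 29600 bp with a median of 3600 bp, against 2000 bp over all 3698 regions with falling H3K27ac. Among 77 pairs of neighbours on the same scaffold the median gap was 150600 bp, and 14 pairs were under 10 kb apart. Only 12 regions shared an island of some mark with another region, through 9 islands, so most were separate places in the genome.

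How many of the 8 lists of falling islands (4 marks, 2 replicates) held a region varied. The rule requires 4 lists, and 11 regions were in just 4, 83 in 5, 90 in 6, 65 in 7 and 20 in all 8. Both replicates of both methylation marks fell at 62 regions, and 109 were listed in a single replicate of each. The most frequent combinations, with 41 regions each, were every list except H3K9ac replicate 2, and H3K4me3 replicate 2 with H3K36me3 replicate 3 and H3K9ac replicate 1. The set depends on the lists available: without H3K36me3 replicate 3 the rule gave 145 regions, and without H3K27ac replicate 2 it gave 701. With islands of at least 50 reads it gave 149, and with islands changed by at least 2.5-fold 31.

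**Figure D1:**
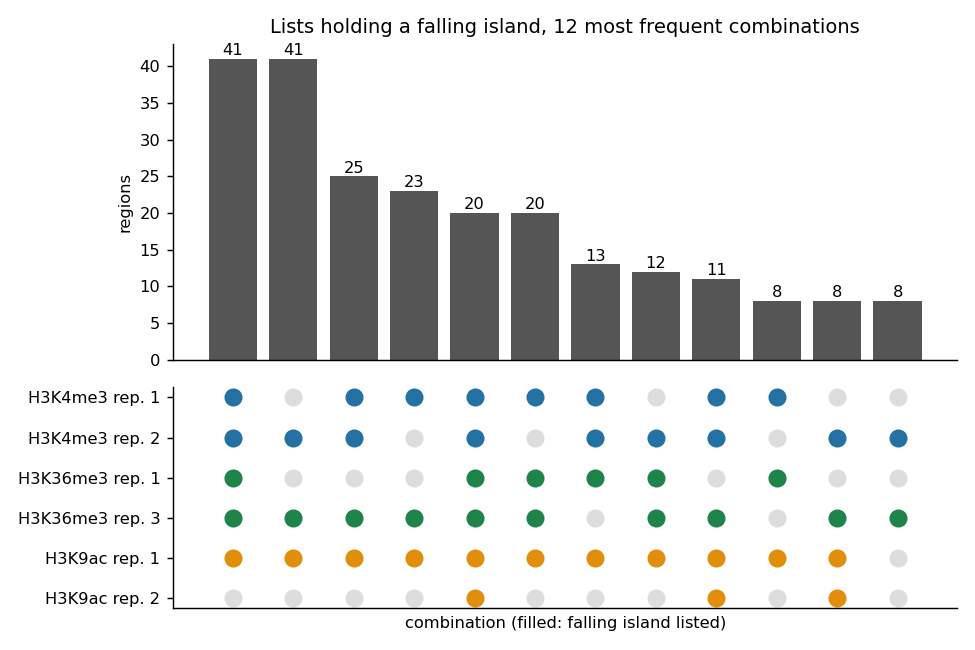
Bars give the number of regions (vertical axis) for the 12 most frequent combinations of lists, and filled circles below each bar mark the lists that held a falling island. H3K27ac is left out of the circles because both of its replicates fell at every region; H3K9ac replicate 1 is filled in 11 of the 12 combinations and H3K9ac replicate 2 in 3.

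H3K27ac was lower at 7PM at all 269 regions, as the rule demands, so its values are a description without a test. In replicate 1 the reads per region ran from 14 to 2701 at 7AM (median 157) and from 1 to 1251 at 7PM (median 73). In replicate 2, the shallowest pair of libraries, they ran from 9 to 685 at 7AM (median 63) and from 0 to 305 at 7PM (median 27). The mark was thus low in the evening libraries of both replicates, but 109 regions rested on under 50 morning reads in replicate 2. The median log2 fold (7PM over 7AM, scaled to library totals after adding 1 read) was −1.48 in replicate 1 and −1.43 in replicate 2. Averaged over the pairs it was −1.47, with a median SD between the pairs of 0.24 (n = 2). The same median over all 3698 regions was −1.47, so the typical depth of the H3K27ac fall was the same as over all of them. Among the 269, 30 passed 4-fold in replicate 1 alone and 41 in replicate 2 alone.

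H3K4me3, the mark of gene starts, had a falling island in replicate 1 at 188 regions and in replicate 2 at 199, with 118 in both. Over all regions with falling H3K27ac the corresponding shares were 10.7%, 14.1% and 5.65%, but the rule itself selected for these lists and nothing can be read from the contrast. In replicate 1 the listed reads ran from 21 to 1755 at 7AM (median 368) and from 4 to 922 at 7PM (median 225), the 7PM library being the deeper one. In replicate 2 they ran from 24 to 970 at 7AM (median 165) and from 3 to 385 at 7PM (median 56). After scaling, the median log2 fold was −1.23 in replicate 1 and −1.33 in replicate 2. At the 118 regions listed in both, it was −1.40, ranging from −2.39 to −1.07, with a median SD between pairs of 0.19 (n = 2). Falls of 4-fold or more were found at 2 regions in replicate 1 and 22 in replicate 2. No region had a rising H3K4me3 island in replicate 1 (0.0541% over all), and 3 had one in replicate 2 (0.297% over all), with 26 to 29 reads at 7PM.

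H3K36me3, the gene-body mark, had a falling island in replicate 1 at 145 regions and in replicate 3 at 228, with 104 in both (5.6%, 12.2% and 3.7% over all regions with falling H3K27ac, again set by the rule). Reads in replicate 1 ran from 22 to 2790 at 7AM (median 180) and from 1 to 1072 at 7PM (median 67). In replicate 3 they ran from 23 to 1460 at 7AM (median 259) and from 6 to 490 at 7PM (median 75.5). The mark was lower in the evening by a median log2 fold of −1.24 in replicate 1 and −1.31 in replicate 3. At the 104 regions listed in both, the median was −1.33 (range −1.82 to −1.02; median SD between pairs 0.20, n = 2). No region had a rising H3K36me3 island in either replicate (0.108% over all in each).

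**Figure D2:**
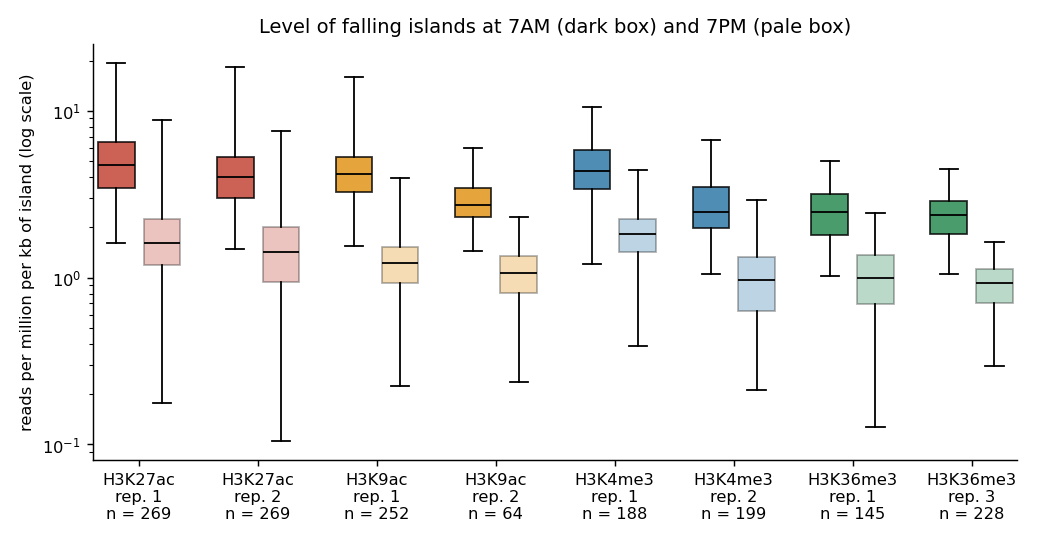
Levels of the listed falling islands over the regions, in CPM per kb of island on a log axis, for each mark and replicate at 7AM (dark) and 7PM (pale). Boxes span the quartiles with the median as a line, and whiskers reach the lowest and highest region; n is the number of regions with a falling island, and the single value of 0 (H3K27ac replicate 2 at 7PM) is not drawn. The 7AM medians lie between 2.36 and 4.70 and the 7PM medians between 0.93 and 1.82.

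Per kb of listed island, the 7AM median was highest for H3K27ac replicate 1, at 4.70 CPM, and lowest for H3K36me3 replicate 3, at 2.36. By 7PM the medians had come to 1.61 and 0.93. Levels of different antibodies are not on a common scale, so their order across marks is not a result. The single region with 0 reads at 7PM was on Peaxi162Scf00899 at 295201 to 297400. Its H3K27ac had 13 morning and 0 evening reads in replicate 2, and 75 and 29 in replicate 1 (log2 fold −1.66). In the 7PM library of replicate 2 a count of 0 allows up to 3 reads, which is 0.378 CPM.

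H3K9ac, the acetylation mark that took no part in the choice, had a falling island at 252 of the 269 regions in replicate 1 (93.7%, exact Clopper-Pearson 95% interval 90.1 to 96.3) and at 64 in replicate 2 (23.8%, 18.8 to 29.3). The intervals take regions as independent draws and do not cover variation between replicates. Over all 3698 regions with falling H3K27ac the shares were 73.5% and 19.2%. A falling island in both replicates was listed at 63 regions (23.4%, against 17.4% over all), and in either at 253 (against 75.2%). Rising H3K9ac islands were rare: 1 region had one in replicate 1 (0.27% over all) and 1 had one in replicate 2 (0.973% over all). No region had a rising island in both. The shares of both replicates depended on how H3K27ac was called. Without H3K27ac replicate 1 they were 82.3% in H3K9ac replicate 1 and 13.2% in H3K9ac replicate 2. Without H3K27ac replicate 2 they were 81.7% and 8.42%.

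The number of H3K27ac reads moved with these shares. The regions with all 3 marks falling had a median of 157 H3K27ac reads at 7AM in replicate 1, against 48 at the 2549 regions under the 4-fold limit that had no falling methylation island. Where both replicates together held over 300 reads at 7AM, replicate 1 of H3K9ac fell at 99 of the 100 regions and at 144 of 148 regions without falling methylation (97.3%). Above 100 and up to 300 reads the shares were 93.6% and 91.7%. Up to 100 reads they were 36 of 44 (81.8%) and 939 of 1692 (55.5%). In replicate 2 the shares in the same order of depth were 34.0% against 29.7%, 19.2% against 22.0%, and 13.6% against 11.3%. With more than 100 reads the shares of both groups thus lay close together in replicate 1, and in replicate 2 the order of the groups changed with depth. These differences were not tested, since regions are not replicates of a time point. The part of depth in them was not tested either.

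**Figure D3:**
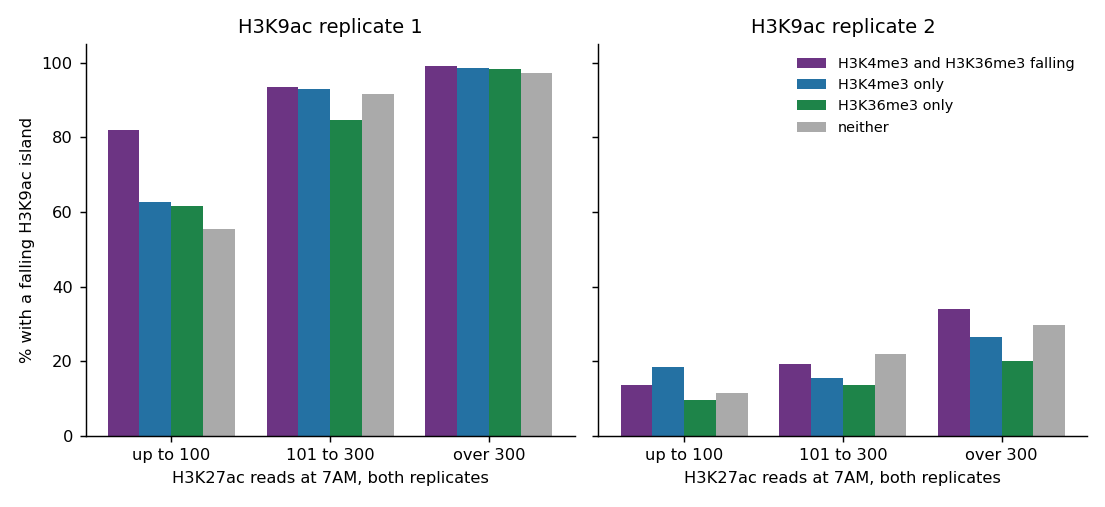
Share of regions with a falling H3K9ac island (vertical axis, percent) by the number of H3K27ac reads at 7AM summed over both replicates, for H3K9ac replicate 1 (left) and replicate 2 (right). Colours separate regions with both methylation marks falling, H3K4me3 alone, H3K36me3 alone or neither, all with falling H3K27ac under the 4-fold limit. In replicate 1 the shares are 97.3% or more above 300 reads, while up to 100 reads they run from 55.5% to 81.8%.

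The falling islands of H3K9ac were at least 2-fold lower in the evening by the threshold of the lists. In replicate 1 reads ran from 12 to 1889 at 7AM (median 183.5) and from 4 to 589 at 7PM (median 61.5). In replicate 2 they ran from 16 to 690 at 7AM (median 78.5) and from 3 to 403 at 7PM (median 38). The median log2 fold was −1.77 in replicate 1 and −1.27 in replicate 2, against −1.74 and −1.33 at all listed regions with falling H3K27ac. In replicate 1 the fall of H3K9ac was deeper than that of H3K27ac at 203 of 252 regions, and in replicate 2 at 21 of 64. These counts were not made over all 3698 regions with falling H3K27ac. Their H3K27ac medians were −1.39 in replicate 1 and −1.49 in replicate 2. The medians of H3K9ac and H3K27ac thus had the same order there, and it does not set the 269 regions apart. At the 63 regions with both replicates the median was −1.69 (range −2.66 to −1.05) with a median SD between pairs of 0.50, and the fall was deeper in replicate 1 at 59 of them.

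The direction of H3K9ac, where both replicates listed a change, was read in one table of merged regions. Merged regions holding both falling and rising islands of the same replicate were left out of it before counting. Of the 2424 regions that remained anywhere in the genome, listed in both H3K9ac replicates, 1352 were lower in both (55.8%) and 404 were higher in both. In 576 H3K9ac fell in replicate 1 but rose in replicate 2, and 92 did the reverse. The regions with all 3 marks falling overlapped 68 of them, of which 67 were lower in both. The exception was Peaxi162Scf00683 at 230001 to 230600, where morning and evening reads were 55 and 21 in replicate 1 but 14 and 38 in replicate 2. Among all regions with falling H3K27ac the count was 646 of 668, and among those with no falling methylation 332 of 348. A fall in both replicates was thus the usual case with or without falling methylation, and these shares were not tested against each other.

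All 2424 regions had already been listed by the authors as changed in each H3K9ac replicate, so the calls and p-values below are conditioned on that change and are no independent evidence of it. Across them, the quasi-likelihood test of edgeR, blocked by replicate, called 0 lower and 0 higher at an adjusted p under 0.05, and so 0 of the 68. At an unadjusted p under 0.05 the same test gave 851 lower regions (35.1%) and 283 higher, and 50 of the 68 were among the lower ones. DESeq2 with the same block called 408 lower (16.8% of all 2424) and 156 higher, including 56 of the 68 as lower. It gave no adjusted p for 1316 of the 2424, so 16.8% understates the share among regions it could call. Keeping the 598 regions that reached 50 reads at one of the times in both replicates, the edgeR test gave 316 lower (52.8%), including 40 of the 44 at the regions described here. The edgeR log2 fold was negative for all 68 with a median of −1.79, against −1.24 over all 2424. No background limited to falling H3K27ac was made for these folds and calls, and the 2424 include 404 regions higher in both replicates. The medians and shares therefore do not compare like with like. TMM scaling, which centres these preselected regions, moved the log2 folds upwards by 0.93 on average, to medians of −0.85 and −0.29, and then called 6 of the 68 lower (2.23% over all). Median-of-ratios scaling called 4 (1.11%). With 2 pairs, a permutation of times within pairs at a single region can reach no two-sided exact p under 0.5. Without the pairing, 2 samples against 2 can reach none under 0.333.

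The falling methylation lay off the centre of the acetylation. H3K4me3 and H3K36me3 mostly fell on the same side of it, whereas H3K9ac lay over much the same stretch as H3K27ac. Falling H3K9ac islands covered a median of 91.7% of the H3K27ac region and their centre was a median of 200 bp from its centre. Falling H3K4me3 covered a median of 52.9% and falling H3K36me3 53.8%, with centres 800 and 1200 bp away. The regions were then turned so that H3K36me3 lay to the right, which was possible for 252 of them. The H3K4me3 centre was on the H3K36me3 side in 205 and on the other side in 37. For H3K9ac it was 135 and 71.

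**Figure D4:**
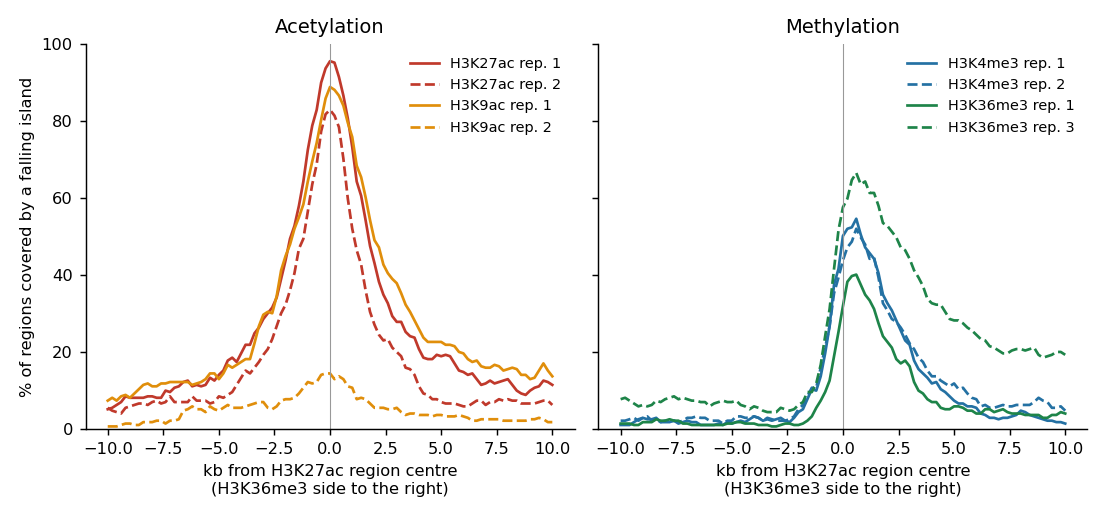
Share of the 269 regions covered by a falling island (vertical axis, percent) at each distance from the centre of the H3K27ac region (horizontal axis, kb), for acetylation (left) and methylation (right), with regions turned so that H3K36me3 lies to the right. The right-hand shift of H3K36me3 follows from this turning. H3K4me3 peaks at 600 bp on the same side in both replicates, at 54.6% and 52.0%, while H3K27ac and H3K9ac replicate 1 peak at 0 bp.

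Inside the H3K27ac region, falling H3K4me3 and H3K36me3 islands shared bases at 259 of the 269 regions (96.3%), over a median of 1400 bp. At 236 regions H3K9ac covered some of those bases too. Where each list had a single island, the overlap of H3K4me3 with H3K36me3 as a share of their joint length had a median of 0.75 to 0.83 over the 4 pairs of lists, and their centres were 100 to 400 bp apart. For H3K27ac with either methylation mark it was 0.33 to 0.43, with centres 700 to 1400 bp apart. The overlap of H3K27ac with H3K9ac was 0.57 to 0.80, and that of replicates of a mark was 0.53 for H3K9ac, 0.72 for H3K27ac, 0.85 for H3K4me3 and 0.86 for H3K36me3. Falling H3K4me3 and H3K36me3 islands thus had median overlaps a little below those of the replicates of either mark, a difference that was not tested. Away from any falling H3K27ac island the overlap of H3K4me3 with H3K36me3 was 0.62 to 0.83. It came from 912 to 2088 pairs of islands in each pair of lists, kept only if the islands overlapped. No such overlap was required at the 269 regions, so the ranges do not compare like with like.

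How far the falling methylation reached outward differed between replicates. Over both replicates together, falling H3K36me3 extended at least 1 kb beyond the H3K27ac region at 110 regions, and H3K4me3 at 70. At 5 kb on the H3K36me3 side 28.3% of regions were still covered by falling H3K36me3 of replicate 3, but 5.95% by that of replicate 1, and 7.43% and 11.9% by H3K4me3 of replicates 1 and 2. The 2 replicates of H3K36me3 differed in the length of their falling islands throughout. Over the whole lists the medians were 1400 bp in replicate 1 and 3800 bp in replicate 3. The long reach was more frequent in replicate 3, which also had falling islands at more regions (228 against 145). In replicate 1 they summed to at most 15000 bp per region, against 15400 bp in replicate 3. Over both replicates, the H3K36me3 span was the longer of the methylation marks at 134 of the 269 regions.

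The 20 regions that fell in all 8 lists had a median length of 6200 bp. They are 7.43% of the 269, against 0.649% of all regions with falling H3K27ac, a share that the rule on the other marks enlarges. The 8 with the most reads are described here. The first was on Peaxi162Scf00360 at 195601 to 208400. H3K27ac had 1075 morning and 386 evening reads in replicate 1, and 488 and 196 in replicate 2. H3K4me3 had 1660 and 873 reads, then 865 and 343. Every morning library held more reads than its evening partner, as a fall in all 8 lists demands. H3K36me3 had 873 and 314 reads in replicate 1, 880 and 228 in replicate 3. H3K9ac had 1013 and 264, then 279 and 146. The log2 folds were −1.67 ± 0.17 for H3K27ac, −1.35 ± 0.21 for H3K4me3, −1.49 ± 0.24 for H3K36me3 and −1.66 ± 0.64 for H3K9ac (SD, n = 2 pairs). Of the 4 marks, H3K9ac had the widest spread between pairs there.

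On Peaxi162Scf00455 at 503601 to 514600 H3K4me3 fell more than H3K27ac. H3K4me3 had 1273 morning and 564 evening reads in replicate 1, and 690 and 157 in replicate 2 (log2 fold −1.88 ± 0.18, SD, n = 2 pairs). H3K27ac went from 929 to 426 and from 419 to 247 (−1.22 ± 0.31). H3K36me3 changed from 508 to 203 and from 361 to 118 (−1.24 ± 0.11). H3K9ac gave −2.02 ± 0.10, but on few reads in replicate 2, where its listed island held 34 at 7AM and 10 at 7PM, against 856 and 227 in replicate 1. Both methylation marks were listed over the same 5000 bp of this region of 11000 bp, and H3K9ac over 96.4% of it.

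In a region on Peaxi162Scf00738 at 424401 to 437800 the order of these marks differed between replicates. Its H3K4me3 went from 1305 to 519 reads and from 704 to 158 (−1.96 ± 0.085). H3K27ac there was uneven, with 1016 and 540 reads in replicate 1, and 137 and 36 in replicate 2 (−1.68 ± 0.65). In replicate 1 the log2 fold was −1.90 for H3K4me3 and −1.23 for H3K27ac, and in replicate 2 it was −2.02 and −2.14. The listed H3K27ac islands covered 13200 bp in replicate 1 and 3600 bp in replicate 2. Peaxi162Scf01205 at 209801 to 212600 was the reverse in proportion. Its acetylation reads were few, 104 to 33 and 45 to 10 for H3K27ac, beside H3K36me3 reads of 1129 to 498 and 711 to 233. The log2 fold there was −2.12 ± 0.26 for H3K27ac and −1.17 ± 0.21 for H3K36me3 (SD, n = 2 pairs).

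The other 4 of these 8 regions were on Peaxi162Scf00376 at 346001 to 355200, Peaxi162Scf00033 at 3062001 to 3068200, Peaxi162Scf00386 at 251001 to 262000 and Peaxi162Scf00016 at 84401 to 90600. Their mean log2 folds lay between −1.99 and −1.35 for H3K27ac, −1.62 and −1.15 for H3K4me3, −1.38 and −1.15 for H3K36me3, and −1.67 and −1.44 for H3K9ac. All 8 regions had an edgeR adjusted p of 0.105 for H3K9ac, the smallest that the fit across all regions gave. Of the 68 tested H3K9ac regions 54 had this same value, so it does not set these 8 apart. H3K9ac was lower in both pairs at each of the 8, as their choice from all 8 lists demands.

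**Figure D5:**
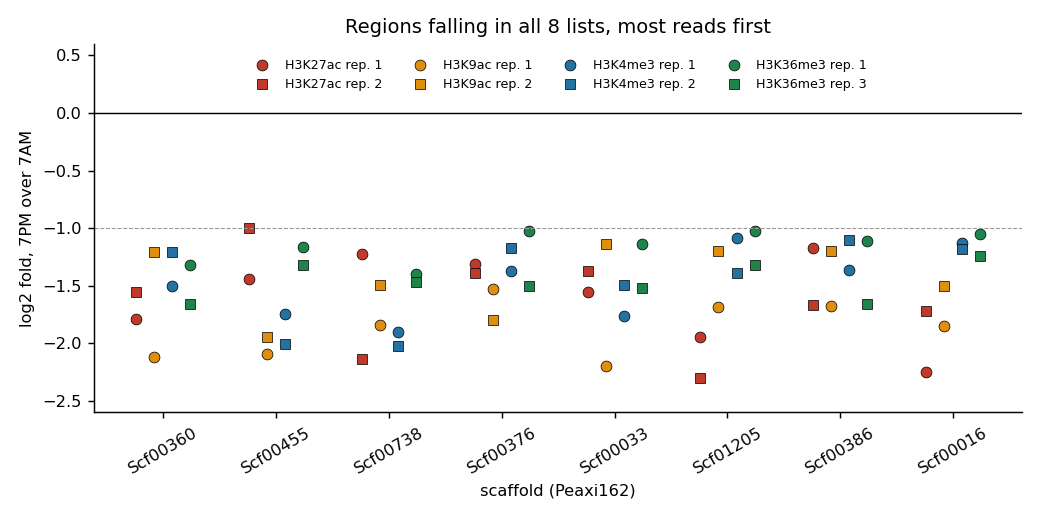
Log2 folds of 7PM over 7AM (vertical axis) in each replicate pair for the 8 regions with the most reads among those falling in all 8 lists, named by scaffold. Circles are replicate 1 and squares replicate 2 (replicate 3 for H3K36me3), colours are marks, and the dashed line is the 2-fold limit of the lists. Every point lies at or below −1, which follows from the choice of regions and the limit of the lists. No mark is the lowest at all 8 regions.

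The deepest mean fall of H3K9ac was on Peaxi162Scf00604 at 239001 to 243600, with a log2 fold of −2.66 ± 1.27 (SD, n = 2 pairs; edgeR adjusted p = 0.105). Its morning and evening reads were 322 and 30 in replicate 1, and 167 and 59 in replicate 2. Peaxi162Scf00003 at 3592801 to 3594800 was similar, with 150 to 14 reads and 84 to 29 reads (−2.65 ± 1.22). Both fell much further in replicate 1 than in replicate 2, and their SD is too wide to rank them. Next came Peaxi162Scf00608 at 263801 to 267600 (−2.12 ± 0.69) and Peaxi162Scf00897 at 419601 to 424200 (−2.10 ± 0.41). At the other end, Peaxi162Scf01105 at 326601 to 328800 went from 32 to 17 and from 45 to 26 H3K9ac reads (−1.05 ± 0.0054), next to the limit of the lists. The falling H3K36me3 of that region, by contrast, spanned 11000 bp with 810 morning and 294 evening reads in replicate 3. Smaller H3K9ac falls were also listed on Peaxi162Scf00464 at 39601 to 41200 (−1.14 ± 0.051), Peaxi162Scf00115 at 713801 to 715000 (−1.17 ± 0.20) and Peaxi162Scf00004 at 1300601 to 1302800 (−1.34 ± 0.44).

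The 16 regions with no falling H3K9ac island were shorter, with a median of 1600 bp against 3800 bp for the other 253, and had fewer H3K27ac reads, a median of 73.5 against 174 at 7AM in replicate 1. Their median log2 fold of H3K27ac was −1.22 in replicate 1 and −1.44 in replicate 2, against −1.49 and −1.43. The part of depth in the missing H3K9ac islands was not tested.

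The longest region, on Peaxi162Scf00408 at 200601 to 230200, also had the most H3K27ac reads. They numbered 2701 in the morning and 1251 in the evening of replicate 1, over an island of 29600 bp, and 409 and 49 in the shorter islands of replicate 2 (log2 fold −2.35 ± 1.31, SD, n = 2 pairs). The pairs measured different lengths there, and the mean is therefore a rough one. H3K4me3 was steadier, from 749 to 453 and from 814 to 297 reads (−1.31 ± 0.020). H3K9ac went from 1889 to 589 and from 288 to 103 (−1.81 ± 0.076). The edgeR test used merged H3K9ac regions rather than these sums. The first one overlapping this region had a log2 fold of −2.41 and an edgeR adjusted p of 0.105. H3K36me3 was listed in replicate 3 alone, with 998 reads at 7AM and 370 at 7PM. A rising H3K4me3 island of replicate 2 lay within the same region, with 11 reads at 7AM and 29 at 7PM.

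Regions listed in both replicates of both methylation marks were ranked if the mark had at least 50 morning reads in each replicate. Among them, H3K4me3 fell most on Peaxi162Scf00037 at 1401001 to 1409200 (−2.11 ± 0.48). Its H3K4me3 had 732 morning and 319 evening reads in replicate 1, and 325 and 54 in replicate 2. It was followed by Peaxi162Scf00519 at 476001 to 480000 (−2.01 ± 0.59) and by the region on Peaxi162Scf00738 described above. H3K36me3 fell most on Peaxi162Scf00375 at 624201 to 626400, with 282 and 68 reads in replicate 1, and 171 and 41 in replicate 3 (−1.82 ± 0.094). Peaxi162Scf00139 at 856801 to 863400 (−1.80 ± 0.012) and Peaxi162Scf00294 at 799401 to 802200 (−1.76 ± 0.43) came next. With 2 pairs each, the order of these regions is not firm.

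The size of the falls was mostly weakly related between marks. Across the regions, the log2 folds of H3K27ac and H3K4me3 had Pearson correlations of −0.017 to 0.039 in the 4 pairings of replicates (n = 188 or 199). Those of H3K27ac and H3K36me3 lay between −0.095 and 0.087 (n = 145 or 228). For H3K4me3 and H3K36me3 the 4 pairings gave −0.0048 to 0.36 (n of up to 169). H3K27ac and H3K9ac reached 0.54 in replicate 1 (Spearman 0.59, n = 252), but −0.047 in replicate 2 (n = 64). The replicates of a mark themselves correlated weakly, at 0.20 for H3K27ac (n = 269), 0.20 for H3K4me3 (n = 118), 0.14 for H3K36me3 (n = 104) and 0.025 for H3K9ac (n = 63). All regions passed the same 2-fold limit and share their libraries, and these values are a description.

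The regions nearest to the 4-fold limit were taken by their H3K27ac ratio, and their values are a description. Just inside it were Peaxi162Scf00007 at 1241201 to 1243600, with 7AM to 7PM ratios of H3K27ac CPM of 3.97 in replicate 1 and 10.6 in replicate 2, Peaxi162Scf00371 at 1063201 to 1065800 (5.10 and 3.96) and Peaxi162Scf00132 at 791201 to 792800 (7.71 and 3.94). Just outside were Peaxi162Scf00007 at 2577001 to 2578800 (4.44 and 4.03), Peaxi162Scf00042 at 2376401 to 2379200 (4.03 and 5.70) and Peaxi162Scf01144 at 98001 to 101400 (4.06 and 4.55).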

How the data were processed

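The members of the set and all lists were chosen with earlier results of these data known. The submitters' processing notes name SICER 1.1, Bowtie2 and cutadapt. The sources used here do not state their settings or the genome build. Each of the 16 deposited lists compares one 7AM with one 7PM library of the same replicate number. The authors' deposited columns are read counts of each island at both times, CPM (the counts per 1000000 reads), a fold ratio and p-values with FDR. List labels gave mark, replicate and direction. Island lengths are multiples of 200 bp.

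Counts of the islands overlapping a region were summed per library. Log2 folds use library totals (count over CPM) after adding 1 read. Island borders were set per pair, so replicate counts can cover different lengths. The edgeR test counted merged H3K9ac regions instead, whose folds can differ from those of the named regions they overlap. H3K9ac was tested with edgeR 4.0.16 (R 4.3.3) on the 2424 regions listed in both H3K9ac replicates with a single direction in each. Adjustment was by Benjamini-Hochberg at 0.05. The replicate was a block, because the authors compared libraries of one number. DESeq2 1.42.0 was an alternative. The other 3 marks were not tested. The merging rule and edgeR were tested on simulated data. The edgeR simulation had a smaller spread between replicates than the H3K9ac data and mostly unchanged regions. It therefore does not show how the test performs on these preselected regions. Named regions follow a fixed rule. It takes the 8 with the most reads among those in all 8 lists, and the 4 largest and 4 smallest H3K9ac falls. It also takes the longest, and the 3 largest falls of each methylation mark with at least 50 morning reads in each replicate. The last are 3 on each side of the 4-fold limit. The intervals cover counting only.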

Additional observations from a re-analysis of the deposited data

How the results depend on the processing

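The number of regions was 228 with an overlap of 50% of the shorter island, 269 with 200 bp, 230 at an FDR of at most 1e-05, 31 at a fold of at least 2.5, 149 with at least 50 reads, 62 when both replicates of both methylation marks were required, 294 with the 4-fold regions kept and 192 with 1 per scaffold. Leaving out 1 replicate of a mark gave 145 to 701. Replicate 1 of H3K9ac fell at 81.7% to 95.7% of regions and replicate 2 at 8.42% to 27.1% when a replicate was left out, and at 98.4% and 33.9% with both replicates of both methylation marks. In the other settings of overlap, FDR, fold, reads, 4-fold limit and scaffold these shares stayed within their intervals. Those settings reuse the same islands, and the intervals take regions as independent, so staying within them is no measure of stability. Median log2 folds of regions listed in both replicates ran, with a replicate left out, from −1.39 to −1.30 for H3K4me3, −1.45 to −1.19 for H3K36me3, −1.48 to −1.43 for H3K27ac and −2.09 to −1.29 for H3K9ac, and other read additions or the 50-read filter moved them by less than the SD between pairs. So did the single largest island for the 3 marks of the rule. TMM moved the H3K9ac median from −1.69 to −0.75.

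Without the replicate block edgeR called 0 lower and 0 higher H3K9ac regions (585 and 175 at an unadjusted p under 0.05). Replicate numbers were shared in the labels; the replicate difference at 7AM and at 7PM correlated at 0.48 across the 2424 regions, which shared borders within a pair also give. Calls lower and higher were 54 and 345 with TMM, 27 and 359 with median-of-ratios, 408 and 156 with DESeq2, and 316 and 155 with at least 50 reads. At the regions with all 3 marks falling the lower calls were 6, 4, 56 and 40 in the same order. The cause was not tested. Of the named regions with an adjusted p, 3 of 20, 2 of 20, 16 of 18 and 11 of 13 passed. All 133 alternative folds were negative. Of the 68 H3K9ac regions tested at the regions with all 3 marks falling, 67 had been listed as falling in both replicates. That sign was therefore largely set beforehand. DESeq2 gave no adjusted p for 1316 regions.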

Other observations

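The 25 regions left out for a 4-fold or larger fall of H3K27ac in both replicates had the same marks falling. Their median length was 3200 bp. H3K9ac had a falling island at 25 of 25 in replicate 1 and at 18 of 25 in replicate 2, with median log2 folds of −2.23 and −1.77. H3K4me3 fell there by medians of −1.30 in replicate 1 (20 regions) and −1.47 in replicate 2 (21 regions), and H3K36me3 by −1.17 in replicate 1 (10 regions) and −1.33 in replicate 3 (21 regions). These medians of H3K4me3 and H3K36me3 lie near those of the 269 regions under the limit, and no test of the difference was made.

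A rising island of some mark lay within 8 of the 269 regions. Besides the 3 of H3K4me3 and the 2 of H3K9ac, 3 were of H3K27ac replicate 2, with 5 to 15, 6 to 33 and 20 to 54 reads from 7AM to 7PM, beside the falling islands of the same library pair.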
